A study of Rattus norvegicus with 12 samples.

Results

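Enzymes that open drugs and lipids for further handling by hydrolysis or oxidation were followed in the cortex of transplanted rat kidneys that had or lacked the export pump MRP2. The members were 9 genes taken by function: the esterase genes Aadac, Ces1d and Ces2c, the flavin monooxygenase genes Fmo1, Fmo2, Fmo4 and Fmo5, the cytochrome P450 gene Cyp2e1, and Por, which encodes the electron donor of the microsomal P450s. All probe sets whose only platform gene symbol is one of these names were used, which gave 13 of the 31099 probe sets of the array table, and 9 of the 14217 genes it names. A single probe set stood for each of 6 genes, 2 for Fmo4, 2 for Por and 3 for Fmo2. All 13 passed the filter on low signal and were tested among 18625 probe sets.

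The data were 12 arrays of renal cortex from male rats, 1 array per kidney graft. In 6 arrays the donor kidney was ABCC2-/- and so deficient in MRP2, and in 6 it was wild type. The recipients were wild type in both groups, so blood and leukocytes of the recipient in a deficient graft carry intact Abcc2. Strain, age, the nature of the mutation, the time after transplantation and whether each graft came from a separate donor are not given in the sources used here, so every p reported here reflects only how these grafts varied, which may be technical. Signal is in the deposited units, a linear scale, and levels of different probe sets cannot be ranked against each other. Differences are on the log2 scale, deficient minus wild type, and SE is their standard error in limma.

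MRP2 moves organic anions, including conjugates made from drugs, out of proximal tubule cells into the urine. The enzymes described here act upstream of such export. Carboxylesterases and arylacetamide deacetylase cut esters and amides in the endoplasmic reticulum, flavin monooxygenases add oxygen to nitrogen or sulfur atoms with electrons from NADPH, and P450s oxidize carbon with electrons handed on by P450 oxidoreductase. The alcohols, acids and oxides they leave are often conjugated next. In rodent kidney many of these enzymes are found in the proximal tubule.

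The arrays bore out the labels. Abcc2 had a signal between 0.0387 and 0.213 in deficient grafts (median 0.150) and between 0.787 and 0.987 in wild-type grafts (median 0.887), a difference of -2.69 (SE 0.22, adjusted p = 8.36e-06). The lowest value, of deficient replicate 5, was raised for this to 0.0694, the pooled 20th percentile. Without that the difference was -2.83. Of 17 proximal tubule markers on the array 16 passed the filter, and their summed signal was 579 to 678 in deficient and 563 to 748 in wild-type grafts. The sodium-glucose transporter gene Slc5a1 was the one below the filter. Among 8 hepatocyte markers only Apob, Ttr and F2 passed it, with the albumin gene Alb below, and the summed signal was 1.87 to 3.84 in deficient and 2.06 to 3.54 in wild-type grafts. Leukocyte markers, 7 of 12 above the filter, summed to 5.55 to 7.03 in deficient and 5.97 to 6.63 in wild-type grafts, with 2 positive and 5 negative differences (median -0.23). The 3 erythrocyte markers had negative differences (median -0.30) and summed to 10.7 to 46.4 in deficient and 19.8 to 53.4 in wild-type grafts. All 5 glomerular markers had a negative difference (median -0.15), with sums of 14.4 to 20.7 in deficient and 16.2 to 21.2 in wild-type grafts. No marker passed the test, and the part of these cells in the results was not tested.

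The first-listed and the last-listed 3 arrays of each genotype differed when tested over both genotypes together, and the labels give no reason for this. Between these listing groups 30.3% of the tested probe sets differed at an adjusted p under 0.05. The listing groups were not compared within 1 genotype alone. The 3 last-listed deficient arrays, replicates 3, 10 and 14, also had the lowest ratio of the 3′ to the 5′ control probe set of Gapdh, an index of how far toward the 5′ end the labelled RNA reached. The ratio was 1.28 to 1.36 in these 3, against 1.66 to 1.93 in the first-listed deficient arrays and 1.64 to 1.88 in all wild-type arrays. Results are therefore given over all arrays, with the listing group as a block, within each listing group, and with this ratio as a covariate where that moves them.

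Across the members no genotype difference passed the test. In whole cortex fewer cells of a type and less RNA per cell cannot be told apart, which holds for each value given here. No member probe set passed an adjusted p of 0.05 over all 12 arrays in limma, where 4 of the 18625 tested probe sets, 0.0215%, passed, and the adjusted p of the members lay between 0.465 and 0.930. The difference was positive in 4 and negative in 9 of the 13 probe sets, with a median of -0.073 beside -0.023 over all tested probe sets. In 12 of 13 its size was under 0.3. Unadjusted p was under 0.05 for 2 of the 13, Aadac and Fmo5, against 7.98% of all tested probe sets.

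**Figure D1:**
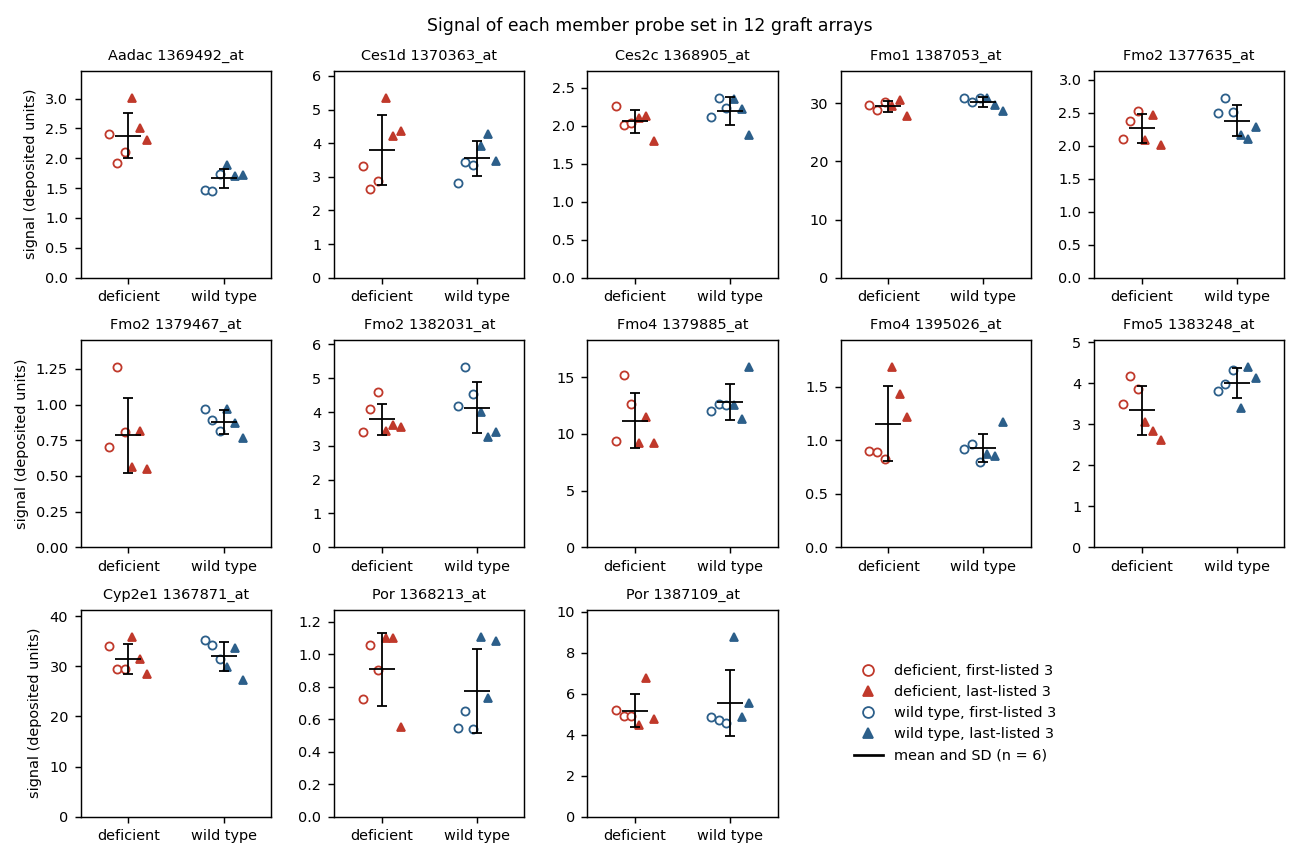
Signal of the 13 member probe sets in deposited units, in deficient (red, left) and wild-type (blue, right) grafts; open circles are the first-listed and filled triangles the last-listed 3 arrays of each genotype, and bars give the mean and SD of 6 arrays. Aadac is the one probe set without overlap between genotypes, while the 3 last-listed deficient arrays are the lowest for Fmo5 and the highest for Fmo4 1395026_at.

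Aadac was the member with the widest difference. It encodes arylacetamide deacetylase, an esterase and amidase with its active site in the lumen of the endoplasmic reticulum, known from human liver for the hydrolysis of drugs such as flutamide and from rodents for a part in the release of stored triglyceride. Its signal was 1.91 at the lowest, 2.36 at the median and 3.02 at the highest in deficient grafts, against 1.46, 1.72 and 1.88 in wild-type grafts. Every deficient graft lay above every wild-type graft, although the lowest deficient array, replicate 9, was close to the highest wild-type array, replicate 4. Such separation in this direction was found for 30 of the 18625 tested probe sets, 0.161%.

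Aadac averaged 2.38 ± 0.379 in deficient grafts, against 1.66 ± 0.166 in wild-type grafts (SD, n = 6 each). The difference was 0.51 (SE 0.11), a 1.42-fold higher signal with a 95% interval of 1.21 to 1.67. An exact permutation test of the arrays, two-sided, gave p = 0.00216, which is as low as this design allows. Over all probe sets the adjusted p was 0.465 in limma, so Aadac did not pass. It ranked 11 by p among the 18625 probe sets.

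With the listing group as a block Aadac passed (adjusted p = 0.0280). It was then the only one of the 13 member probe sets to pass, where 0.601% of all tested probe sets did. The difference had the same sign and a like size in both listing groups. In the last-listed arrays it was 0.55 (SE 0.12, adjusted p = 0.0200), with means of 2.61 in deficient and 1.77 in wild-type grafts. In the first-listed arrays it was 0.46 (adjusted p = 0.225), with means of 2.14 in deficient and 1.55 in wild-type grafts. The interaction of genotype and listing group was 0.09 (SE 0.17, adjusted p = 0.826) and did not pass. With the Gapdh ratio as a covariate the Aadac difference was 0.42 (SE 0.11) and did not pass. Its adjusted p in limma was 0.99985, a value shared by all 13 member probe sets in that fit, and its unadjusted p was 0.00205. Without any 1 array it lay between 0.44 and 0.57, with adjusted p from 0.255 to 0.898, and did not pass.

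The promoter of Aadac is printed because this gene alone among the members separated the genotypes. That of Cyp2e1 is printed because it held the one motif found in a member. RefSeq (GRCr8) gave a promoter, 250 bases before to 50 after the gene start, for 8 of the 9 genes, and the bases before the start are shown on the strand of the gene, for Aadac chr2:146313029-146313278 (+) and for Cyp2e1 chr1:205269717-205269966 (+). Capitals mark the motif TATAAA.
Aadac: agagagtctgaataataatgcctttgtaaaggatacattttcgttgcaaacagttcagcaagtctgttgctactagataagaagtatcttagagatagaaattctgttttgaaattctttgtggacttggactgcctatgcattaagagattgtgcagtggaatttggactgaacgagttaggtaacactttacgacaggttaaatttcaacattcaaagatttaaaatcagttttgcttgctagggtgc
Cyp2e1: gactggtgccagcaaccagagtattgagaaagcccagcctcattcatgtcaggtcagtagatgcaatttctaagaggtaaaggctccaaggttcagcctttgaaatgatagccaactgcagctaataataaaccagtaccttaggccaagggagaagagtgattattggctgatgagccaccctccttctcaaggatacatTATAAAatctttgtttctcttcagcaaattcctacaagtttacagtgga

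The 8 promoters of 300 bases were searched on both strands for the TATA box TATAAA, the HNF1 motif GTTAAT, the HNF4 site CAAAGTNCA and the core of the antioxidant response element TGACNNNGC. TATAAA was found in 1 of 8, and in 14.2% of 33469 promoters of the table. The other 3 motifs were found in 0 of 8, against 7.45% of all promoters for GTTAAT, 1.24% for CAAAGTNCA and 12.1% for TGACNNNGC. The Aadac promoter had 35.7% G and C and that of Por 66.3%, the lowest and the highest of the 8.

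The 2 carboxylesterases did not separate the genotypes. Ces1d encodes an esterase that in mouse is also a triglyceride hydrolase of liver and fat. Its signal was 2.64, 3.78 and 5.36 (lowest, median and highest) in deficient grafts and 2.81, 3.46 and 4.29 in wild-type grafts, with broad overlap. The difference was 0.07 (SE 0.16, 95% interval -0.26 to 0.40, adjusted p = 0.880).

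Ces1d differed between the listing groups. The last-listed arrays were higher by 0.47 (SE 0.10, adjusted p = 0.00171). Mean signals were 4.65 in the last-listed and 2.95 in the first-listed deficient grafts, and 3.90 in the last-listed and 3.20 in the first-listed wild-type grafts. The genotype difference was 0.25 in the last-listed and -0.12 in the first-listed arrays, and -0.17 with the Gapdh ratio as a covariate.

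Ces2c belongs to the carboxylesterase 2 family, which favours esters with a small acyl group. It had signals of 1.80, 2.07 and 2.26 in deficient grafts and 1.87, 2.23 and 2.37 in wild-type grafts. In 5 of 6 deficient grafts the signal was under the wild-type mean, but the ranges overlapped almost wholly. The difference was -0.09 (SE 0.09, adjusted p = 0.715), an interval of 0.825 to 1.06 as a ratio of deficient to wild type, and it was -0.09 in the first-listed and -0.10 in the last-listed arrays.

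Fmo1, the main flavin monooxygenase of rodent kidney, was the steadiest member. Its signal was 27.8, 29.7 and 30.5 (lowest, median and highest) in deficient grafts and 28.8, 30.6 and 31.0 in wild-type grafts. The coefficient of variation was 3.27% in deficient and 2.92% in wild-type grafts. The difference was -0.04 (SE 0.06, adjusted p = 0.822), and the 95% interval of the ratio of deficient to wild type was 0.889 to 1.07.

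Fmo5 was the second member with an unadjusted p under 0.05. Its product differs from the other forms in that it oxidizes ketones to esters rather than acting mainly on nitrogen or sulfur. The signal was 2.61, 3.27 and 4.17 in deficient grafts and 3.39, 4.05 and 4.39 in wild-type grafts. The 3 deficient grafts below all wild-type grafts were the last-listed ones, replicates 3, 10 and 14. Fmo5 averaged 3.34 ± 0.606 in deficient grafts, against 4.01 ± 0.372 in wild-type grafts (SD, n = 6 each), a difference of -0.28 (SE 0.11, adjusted p = 0.612) with an exact two-sided permutation p of 0.0498.

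The Fmo5 difference was larger in the last-listed arrays, although the interaction did not pass. There it was -0.48 (SE 0.11) and passed at an adjusted p of 0.0290. Fmo5 and Aadac were the 2 of 13 members that passed in these arrays, where 6.39% of all probe sets did. In the first-listed arrays it was -0.07 (adjusted p = 0.787), where 0.0215% of all probe sets and 0 members passed in limma (2 members had an unadjusted p under 0.05). The interaction of genotype and listing group was -0.41 (SE 0.15, adjusted p = 0.157), and 0 members passed that test in limma, against 2.54% of all probe sets (4 members had an unadjusted p under 0.05). With the Gapdh ratio as a covariate the difference was -0.15.

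The probe sets of Fmo4, a form with few known substrates, differed in sign. Probe set 1379885_at had signals of 9.16, 10.4 and 15.2 in deficient grafts and 11.3, 12.5 and 15.9 in wild-type grafts, a difference of -0.22 (SE 0.12, adjusted p = 0.635). Probe set 1395026_at had 0.824, 1.06 and 1.68 in deficient grafts and 0.793, 0.893 and 1.17 in wild-type grafts, a difference of 0.28 (SE 0.17, adjusted p = 0.638). Neither passed, and averaged as 1 gene the difference was 0.03.

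The Fmo4 differences were larger in the last-listed arrays, without a pass. The 3 last-listed deficient grafts had 1.22, 1.43 and 1.68 on 1395026_at and were the 3 highest of the 12 arrays. Within that group the difference was 0.59 on 1395026_at (adjusted p = 0.0525) and -0.41 on 1379885_at (adjusted p = 0.0743). Within the first-listed arrays it was -0.03 and -0.02 on these probe sets. With the Gapdh ratio as a covariate the difference of 1395026_at was -0.01 and that of 1379885_at -0.14. Without deficient replicate 3 that of 1395026_at was 0.16, and without deficient replicate 11 it was 0.36. The deviations of the 2 probe sets from their genotype means had a Pearson r of -0.25 over the 12 arrays, and 0.31 after the means of the listing groups were removed as well.

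**Figure D2:**
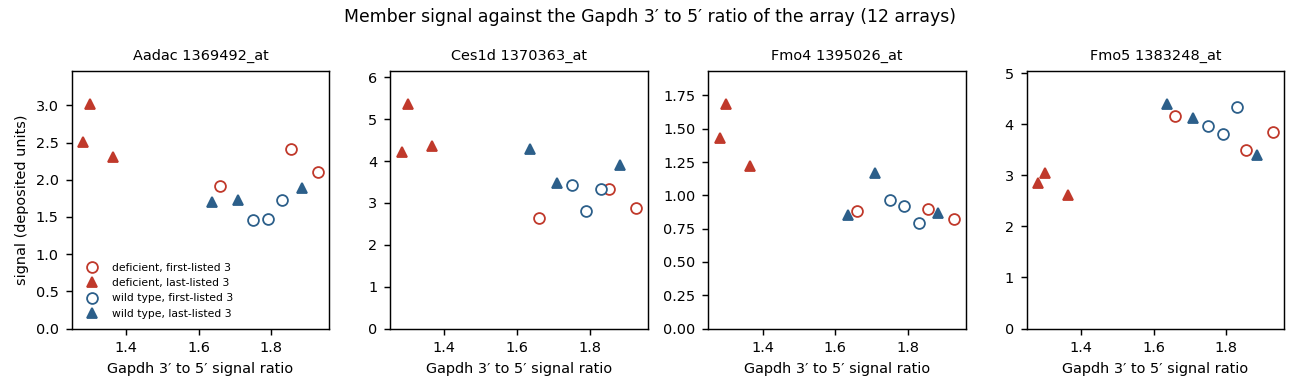
Signal of 4 member probe sets (vertical axes, deposited units) against the ratio of the 3′ to the 5′ Gapdh control signal of the same array (horizontal axes); deficient grafts are red and wild-type grafts blue, and triangles are the last-listed arrays. The 3 deficient arrays with ratios of 1.28 to 1.36 hold the highest Fmo4 1395026_at and the lowest Fmo5 signals, whereas Aadac is also high in the deficient arrays with ratios of 1.66 to 1.93.

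Fmo2, the form best known from lung, was read by 3 probe sets and was lower on average in deficient grafts on each, without a pass. Probe set 1382031_at had signals of 3.42, 3.57 and 4.60 in deficient grafts and 3.27, 4.10 and 5.33 in wild-type grafts, a difference of -0.11 (SE 0.12). Probe set 1377635_at had 2.02, 2.24 and 2.52 in deficient grafts and 2.11, 2.38 and 2.73 in wild-type grafts, a difference of -0.07 (SE 0.09). Probe set 1379467_at had 0.552, 0.756 and 1.26 in deficient grafts and 0.764, 0.882 and 0.972 in wild-type grafts, a difference of -0.22 (SE 0.17). Adjusted p values were 0.670 to 0.781.

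The Fmo2 differences had other sizes within the listing groups, although no interaction passed (adjusted p from 0.420 to 0.622). On 1379467_at the value was 0.010 in the first-listed and -0.45 in the last-listed arrays, and -0.087 with the Gapdh ratio as a covariate. This probe set also depended on single arrays, with -0.37 without deficient replicate 9, -0.14 without deficient replicate 3 and -0.13 without deficient replicate 14. On 1382031_at the difference was -0.22 in the first-listed and -0.0071 in the last-listed arrays, and -0.019 with the Gapdh ratio. Leaving out wild-type replicate 6 gave -0.034, wild-type replicate 7 -0.18 and deficient replicate 11 -0.17. On 1377635_at the difference was -0.15 in the first-listed and 0.00069 in the last-listed arrays, and -0.038 with the Gapdh ratio. It was -0.032 without wild-type replicate 6 and -0.041 without deficient replicate 14. The adjusted p was at least 0.153 in each of these fits, none of which passed.

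The Fmo2 probe sets varied together to unequal degrees. Deviations from the genotype means had a Pearson r of 0.82 over 12 arrays between 1377635_at and 1382031_at, and of 0.47 and 0.37 between these and 1379467_at. With the means of the listing groups removed as well, these values were 0.62, 0.50 and 0.29. Probe set 1382031_at was lower by 0.29 (SE 0.09, adjusted p = 0.0184) in the last-listed arrays. It was 1 of 4 of the 13 member probe sets that differed between the listing groups, where 30.3% of all tested probe sets did. Aadac, Ces1d and Fmo4 1395026_at also differed and were higher there.

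Cyp2e1 oxidizes ethanol, acetone and small solvents and is induced by fasting and diabetes. Its signal was 28.5, 30.5 and 35.9 in deficient grafts and 27.3, 32.6 and 35.1 in wild-type grafts. The ranges overlapped almost completely, with a difference of -0.02 (SE 0.08, adjusted p = 0.930). The 95% interval of the ratio of deficient to wild type was 0.870 to 1.11. The gene table places Cyp2e1 and Ces2c on chromosome 1 with Abcc2, with 684 other coding genes between Cyp2e1 and Abcc2 and 152 between Ces2c and Abcc2.

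Por encodes the flavoprotein that passes electrons from NADPH to microsomal P450s, heme oxygenase and squalene monooxygenase. Probe set 1387109_at had signals of 4.49, 4.93 and 6.79 in deficient grafts and 4.57, 4.88 and 8.79 in wild-type grafts. A single array of each genotype stood above the others, replicate 10 of the deficient and replicate 4 of the wild-type grafts. The difference was -0.08 (SE 0.15, adjusted p = 0.857), and without wild-type replicate 4 it was 0.06.

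The other Por probe set, 1368213_at, varied most among the members, with a within-genotype SD of 0.43 on the log2 scale. It had 0.553, 0.979 and 1.10 in deficient grafts and 0.537, 0.690 and 1.11 in wild-type grafts. The difference was 0.25 (SE 0.21, adjusted p = 0.694), with 0.62 in the first-listed and -0.13 in the last-listed arrays. It was 0.15 without wild-type replicate 9, 0.16 without wild-type replicate 1 and 0.38 without deficient replicate 14. Over the 12 arrays the deviations of the 2 Por probe sets had a Pearson r of 0.60, and 0.41 with the means of the listing groups removed.

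**Figure D3:**
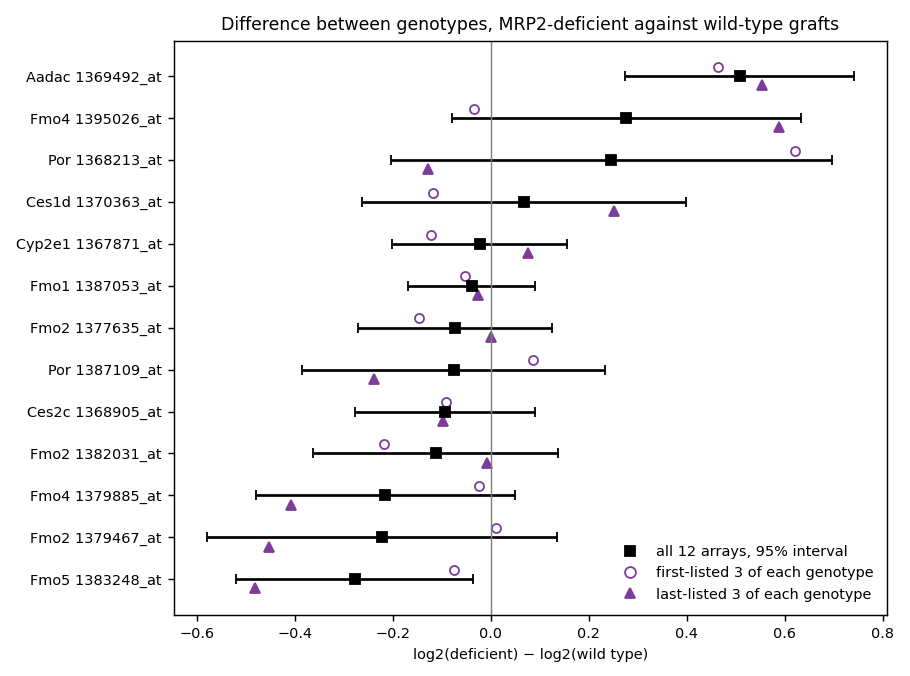
Difference between genotypes for each member probe set, as log2(deficient) minus log2(wild type): squares and bars give the value over 12 arrays with its 95% interval, circles the first-listed and triangles the last-listed 3 arrays of each genotype alone. The interval excluded 0 for Aadac and Fmo5, and the sign was the same in both listing groups for 6 of the 13 probe sets.

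Related enzymes were read from 5 lists, each gene by its tested probe set with the highest mean signal, a rule of choice and not a ranking of RNA levels, and 0 of their genes passed over all arrays in limma. The unadjusted p was under 0.05 for 11 of the 89 genes tested, beside 7.98% of all tested probe sets. The median difference over all 10639 named genes was -0.041.

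Of 13 other esterases and hydrolases 6 had a positive and 7 a negative difference (median -0.022). Pon3, a lactonase carried on lipoproteins, had means of 1.18 in deficient and 0.902 in wild-type grafts, a difference of 0.41 (SE 0.12, adjusted p = 0.606). Ephx1, the microsomal epoxide hydrolase, had 13.2 in deficient and 10.9 in wild-type grafts, a difference of 0.28 (SE 0.09, adjusted p = 0.606).

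Of 16 other flavin, molybdenum and copper oxidases 11 were positive and 5 negative (median 0.062). Acox2, the peroxisomal oxidase of branched fatty acids and bile acid precursors, had a dim signal of 0.244 in deficient and 0.140 in wild-type grafts. Its wild-type values reached down to 0.0754, near the 0.0694 to which low values were raised. The wild-type mean lay under the filter on low signal, so Acox2 passed that filter only through its deficient arrays. The difference was 0.89 (SE 0.26, adjusted p = 0.606). The quinone reductase gene Nqo1 had 0.28 (SE 0.15, adjusted p = 0.628).

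Of 14 genes in a list of P450 electron donors, redox partners of Por and related genes 8 were positive and 6 negative (median 0.030). Both heme oxygenases, which draw electrons from Por, led this list by p. Hmox1 had means of 0.754 in deficient and 0.382 in wild-type grafts, a difference of 0.97 (SE 0.21, adjusted p = 0.465), and Hmox2 had 0.25 (SE 0.10, adjusted p = 0.612).

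Of 18 other P450s of families 1 to 4 that were tested 7 were positive and 11 negative (median -0.019). The 2 of lowest p were the fatty acid hydroxylase genes Cyp4a8, at 0.25 (SE 0.09), and Cyp4a1, at -0.30 (SE 0.12), both at an adjusted p of 0.606. Cyp2c11, named after its values were seen as the largest difference by size in the 5 lists, had -0.98 (SE 0.57, adjusted p = 0.635), with signals of 0.478 to 11.8 in deficient and 1.84 to 5.12 in wild-type grafts. Of 28 alcohol and aldehyde dehydrogenases and reductases 15 were positive and 13 negative (median 0.0063). The aldo-keto reductase genes Akr1b8 and Akr7a3 had differences of 0.76 (SE 0.19, adjusted p = 0.560) and 0.32 (SE 0.12, adjusted p = 0.606). With the listing group as a block 2 genes of these lists passed, Hmox1 (adjusted p = 0.0462) and Akr1b8 (adjusted p = 0.0386), beside the 0.601% of all probe sets that did.

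**Figure D4:**
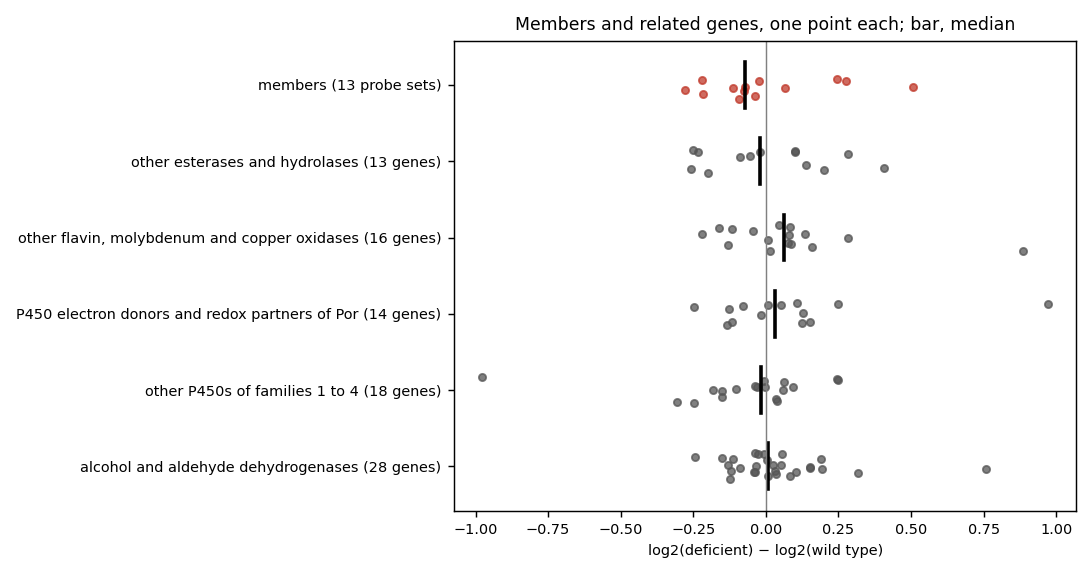
Differences between genotypes, log2(deficient) minus log2(wild type), for the 13 member probe sets (red) and for the genes of 5 related lists (grey), with a bar at each median. The medians lie between -0.073 and 0.062, and the lowest point is Cyp2c11 at -0.98. Aadac, at 0.51, is exceeded upward by Hmox1, Akr1b8 and the dim Acox2, whose wild-type mean was under the filter.

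Members were also set against each other within genotypes. Among pairs of different member genes the highest Pearson r of the deviations from the genotype means over 12 arrays was 0.83, between Aadac and Ces1d, and it was 0.67 with the means of the listing groups removed too. Fmo1 and Ces2c had 0.75, and 0.73 with these means removed. The arrays differed in listing group and in Gapdh ratio, and the part of these in the correlations was not tested, so the values are descriptions.

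The named genes most alike to each member by this measure over the 12 arrays were Gps1 and Clic3 for Aadac (Pearson r 0.90 for each), Nudt6 and Fads3 for Ces1d (0.99 and 0.97), and Dll4 and C1h19orf47 for Ces2c (0.92 and 0.91). A member gene with several probe sets was read here only by the one of highest mean signal. The genes were Tial1 and Fyn for Fmo1 (0.93 and 0.89) and Zfp212 and Map1s for Fmo2 1382031_at (0.95 and 0.90). They were Anpep and Ppp1r1b for Fmo4 1379885_at (0.97 and 0.96). For Fmo5 they were Dgka and Pgd (0.97 and 0.95), for Cyp2e1 Cwc25 and L3hypdh (0.94 and 0.93), and for Por 1387109_at Rufy3 and Efcab14 (0.87 and 0.86). Without the 2 arrays farthest from the median of the member, r was 0.99 for Ces1d with Nudt6 and 0.94 for Fmo4 with Anpep. It was 0.73 to 0.77 for both genes of Aadac, Ces2c and Fmo1 and for Por with Rufy3, and 0.11 for Por with Efcab14. For the other pairs it was 0.83 to 0.95. The genes named are the 2 highest of 10639 for each member, so high values are reached by selection.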

How the data were processed

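Total RNA of renal cortex was measured on 12 Affymetrix 3′ expression arrays, per the labels' protocols. The deposited intensity values are linear probe set signals, with 0.01 as the lowest value, which held 3.56% of them. MAS5 and GCOS are named, without versions, per the submitters' processing notes, and the sources used here do not give the normalization. From these deposited values 57 control probe sets were left out, lower values were set to the pooled 20th percentile (0.0694), and the log2 was used. The 18625 probe sets whose mean reached the 40th percentile (-2.53) of such means were tested with limma 3.58.1 in R 4.3.3 (genotype as sole factor, mean-variance trend, Benjamini-Hochberg adjustment, threshold 0.05). No further normalization was made. The median log2 signal of an array was -1.67 to -1.57 in the last-listed deficient arrays. It was -1.75 to -1.72 in the first-listed deficient arrays and -1.77 to -1.70 in the wild-type arrays. Arrays carry no depth, and their number, 6 per genotype, limits the precision. Single probe sets were also compared by exact two-sided permutation over 924 assignments of the arrays (numpy 2.4.6). Genes were named through the platform annotation, with 20826 probe sets of 1 symbol, 436 of several (not named) and 9780 not listed, and 20758 symbols were updated by Entrez number to the GRCr8 gene table, used for names and gene order. All member probe sets were named, with the 2 genes of lowest p and any past the threshold from each related list, and the 2 genes most alike to each member. The fit was tested on simulated arrays that had no differences between the listing groups, so that test does not cover them. The members and lists were chosen with earlier results of these data known.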

Additional observations from a re-analysis of the deposited data

Results flagged for a closer look

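In 3 of 28 groups of 6 arrays, each group a probe set of a member or Abcc2 in 1 genotype, a single array stood apart by Dixon's test on the log2 scale, and chance gives about 1 in 20. Low values had been raised to the pooled 20th percentile, which in these groups changed only deficient replicate 5 of Abcc2. For Por 1387109_at replicate 10 stood above the other deficient arrays, with a signal of 6.79 and a gap of 0.650 of the range, and replicate 4 above the other wild-type arrays, with a signal of 8.79 and a gap of 0.708 of the range. For Fmo4 1379885_at replicate 8 stood above the other wild-type arrays, with a signal of 15.9 and a gap of 0.665 of the range. The difference of Por 1387109_at was -0.16 when deficient replicate 10 was left out, and 0.06 when this was done with wild-type replicate 4. That of Fmo4 1379885_at was -0.15 without wild-type replicate 8.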

How the results depend on the processing

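The Abcc2 and member differences and the counts past the threshold were recomputed under up to 14 other settings and without each array in turn, with several probe sets of a gene averaged only as that gene. The correlations, listing-group and interaction terms, permutation tests, marker sums and single related genes were not. No paired analysis was possible because the genotypes share only 1 replicate number, 9. The count of all probe sets past the threshold was 4, lay between 3 and 5 without 1 array, and became 2 with a filter at the 60th percentile, 1 with probe sets of a gene averaged (of 10639 genes tested), 112 with the listing group as a block and 1190 in the last-listed arrays alone. The members past it, 0 over all arrays, became 1 with the block (Aadac) and 2 in the last-listed arrays (Aadac and Fmo5), and the related genes 2 and 7. Members turned sign in the first-listed arrays (Ces1d -0.117, Fmo2 1379467_at 0.010, Fmo4 1395026_at -0.0344, Por 1387109_at 0.0864), in the last-listed arrays (Fmo2 1377635_at 0.00069, Cyp2e1 0.076, Por 1368213_at -0.128), with the Gapdh ratio as a covariate (Ces1d -0.170, Fmo4 1395026_at -0.0077) and with array weights (Por 1387109_at 0.0041). Without 1 array Ces1d lay between -0.041 and 0.164, Cyp2e1 between -0.067 and 0.0060 and Por 1387109_at between -0.156 and 0.064. The causes were not tested. Aadac kept its sign in all alternatives, between 0.42 and 0.57. Its adjusted p ran from 0.0200 in the last-listed arrays to 0.99985 with the Gapdh ratio as a covariate, a value shared by all members in that fit. Other floors and filters left the member differences as they were, and quantile normalization or median centring turned none. Median centring lowered each member difference, with Aadac at 0.45 and Fmo5 at -0.33. Abcc2 was dropped by the filter at the 60th percentile and passed in all other alternatives, between -2.99 and -2.22. The number of arrays limits what could be detected.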

Other observations

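In the last-listed 3 arrays of each genotype alone, 7 genes of the related lists passed an adjusted p of 0.05, where 6.39% of all probe sets did, and they were chosen after their values were seen. Higher in deficient grafts were Pon3 (difference 0.61, adjusted p = 0.0336) and Bphl, a hydrolase known in human for activating the prodrug valacyclovir (0.44, adjusted p = 0.0106). Lower were Cyp2c11, the male-specific steroid hydroxylase of rat liver (-1.49, adjusted p = 0.0307), Mgll, the monoglyceride lipase gene (-0.59, adjusted p = 0.0277), Cyb5b, the cytochrome b5 of the outer mitochondrial membrane (-0.47, adjusted p = 0.0102), Aldh16a1 (-0.43, adjusted p = 0.0177) and Aldh4a1, which acts in proline breakdown (-0.32, adjusted p = 0.0405). These arrays hold the 3 deficient grafts with Gapdh 3′ to 5′ ratios of 1.28 to 1.36, and the part of that ratio in these differences was not tested.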
